A study of Mus musculus with 8 samples.

Results

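Adipogenic transcription factors and the Wnt10 ligands were examined in mouse skeletal myoblasts, the mononuclear precursors of muscle fibres, in which the histone methyltransferase G9a had been knocked down. The 9 genes were Pparg, Cebpa, Cebpb, Cebpd, Fabp4, Prdm16, Ppargc1a, Wnt10a and Wnt10b. The list was drawn up by name with earlier results of these data known, and every probe carrying one of these gene symbols was taken. They were measured by 14 of the 45281 probes of the Illumina WG-6 v2.0 array, a bead array that reads total RNA in 1 colour. Each gene was led by its probe of largest standard deviation (SD) over the arrays, and the 5 remaining probes belong to Pparg, Cebpd, Prdm16 and Wnt10b.

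The study holds 8 arrays in 4 groups of 2 biological replicates: myoblasts given a scrambled control siRNA at day 0, the same at day 1, myoblasts given an siRNA against G9a (siG9a) at day 0, and the same at day 1. All groups thus share an siRNA transfection, and no untransfected cells were part of these groups. The labels do not name the strain, the origin or passage of the myoblasts, the siRNA sequence or the event from which the days were counted. They also do not say whether equally numbered replicates came from the same culture.

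Adipogenesis runs as a transcriptional cascade. C/EBPβ and C/EBPδ, bZIP factors encoded by Cebpb and Cebpd, act early and switch on PPARγ, the nuclear receptor that commits cells to the fat lineage, and C/EBPα, which then maintains it; Fabp4, the adipocyte fatty acid carrier, is a target of both. PRDM16 turns muscle-lineage precursors towards brown fat, in a complex that contains the G9a partner GLP (Ehmt1), and PGC-1α, encoded by Ppargc1a, is a coactivator of mitochondrial genes in brown fat and muscle. Wnt10a and Wnt10b are secreted ligands that hold back adipogenesis through β-catenin. In mouse preadipocytes G9a has been described as a repressor of Pparg that favours Wnt10a, which is the question that knockdown in another mesenchymal cell type can address at the RNA level.

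None of the 9 genes was called different between siG9a and control cells, at day 0, at day 1 or over both days together. With or without the offset between replicates taken out, 0 of 31443 features were called in these comparisons, so Ehmt2 itself was not. Only the fit of within-pair differences over both days called Ehmt2 (adjusted p = 1.1e-06). Differences averaged over both days lay between −0.070 for Cebpd and 0.15 for Cebpb on the log2 scale, while the targeted transcript, Ehmt2, fell by 1.50. Between days, the differences of Cebpb, Cebpd, Pparg and Wnt10b lay between −1.12 and −0.61 in the 2 arms. Replicates differed as well, replicate 2 standing above replicate 1 by 1.07 to 1.29 for Cebpb and by 0.041 to 0.81 for Wnt10b. The lead probes of Cebpb, Cebpd, Pparg and Wnt10b were lower at day 1 than at day 0 in both replicates of both arms. The means of an arm lay at 46.1% to 65.5% of the day 0 level, and single pairs at 44.6% to 75.0%. After adjustment over all features, those 4 differences were called only once the offset between replicates was taken out. Without that, the 95% intervals of Cebpd and Wnt10b excluded 0 and those of Cebpb and Pparg did not. For Cebpd, Pparg and Wnt10b no other probe of the gene passed the test between days. The calls of Pparg and Wnt10b were also lost when certain single arrays were left out. Cebpa, Fabp4, Prdm16, Ppargc1a and Wnt10a passed no test between days in any fit of all 8 arrays.

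**Figure D1:**
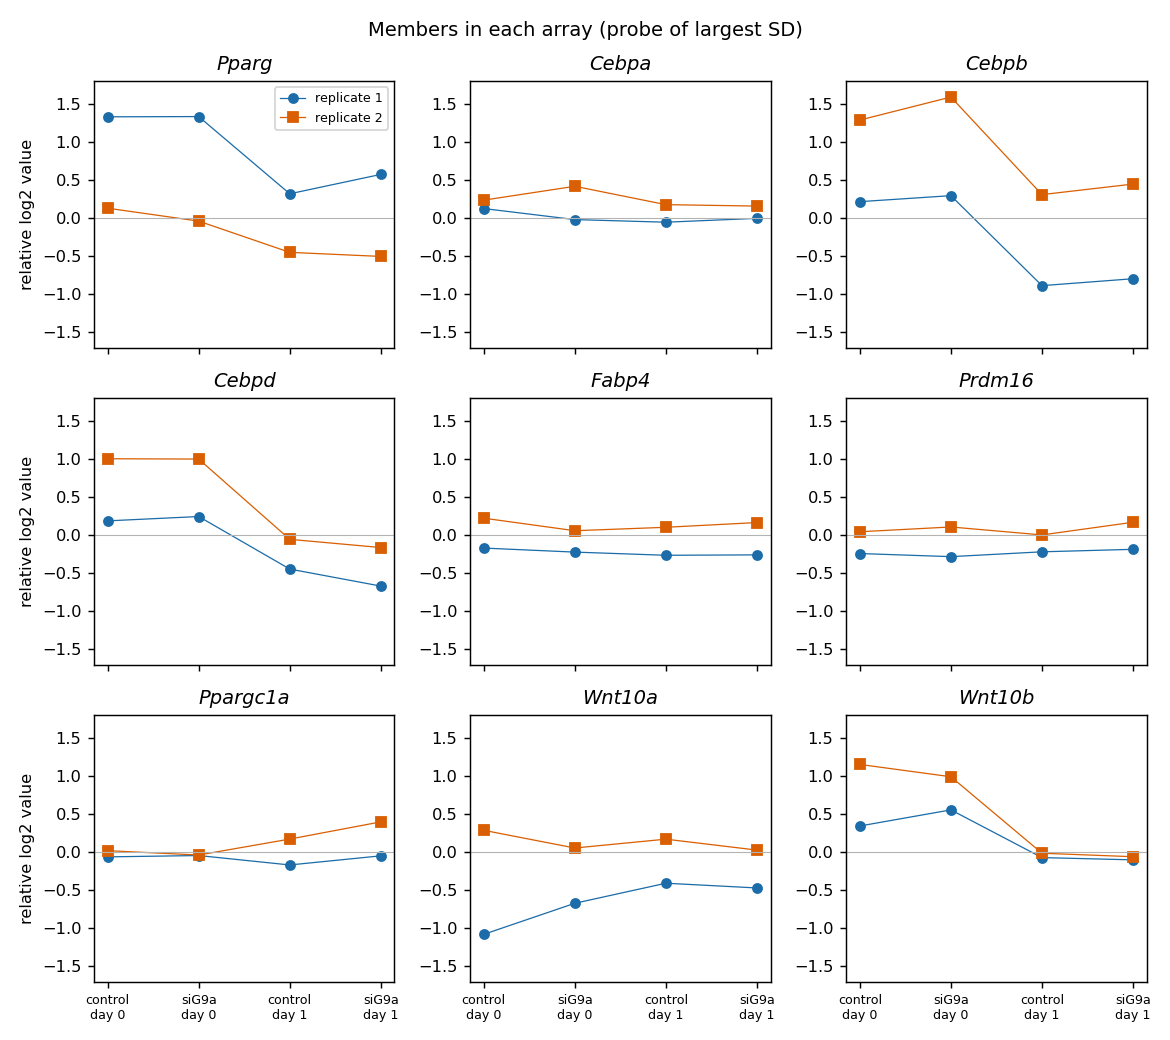
Relative log2 value of the lead probe of each of the 9 genes (vertical axis, 1 panel per gene) in the 4 groups (horizontal axis), with 1 point per array and lines joining arrays of the same replicate number. Cebpb, Cebpd, Pparg and Wnt10b step down from day 0 to day 1 in both replicates, and the 2 replicates run at different heights.

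Each deposited value is a logarithm of a probe's signal over a reference level of that same probe. The medians of the lead probes over the 8 arrays ran from −0.19 for Wnt10a to 0.30 for Cebpb, and no level can be set against another gene's. The base is not stated and is taken here as 2, on which every percentage rests. Whether a probe was detected above background is not known here, because the table holding detection values could not be matched to the samples by name. The number of arrays limits the precision. Array medians ran from −0.15 to 0.11, below 0 in all 4 arrays of replicate 1 and above 0 in all 4 arrays of replicate 2. In bulk RNA, fewer cells expressing a gene and less RNA per cell cannot be told apart.

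The target of the siRNA was checked first. Ehmt2, which encodes G9a, stood at 1.23 and 0.59 in replicates 1 and 2 of control at day 0 and at −0.82 and −0.69 in siG9a. At day 1 the values were 0.77 and 0.66 in control and −0.95 and −0.31 in siG9a, so that every siG9a array lay below every control array. The paired difference was −1.50 ± 0.12 (SE from limma, 4 pairs of arrays), or 35.3% of control with a 95% interval of 29.7% to 42.0%. Single pairs ran from 24.1% to 51.3% of control, and the replicate block gave an interval of 27.0% to 46.1%. A second Ehmt2 probe, ILMN_2705367, gave differences of −2.10 to −0.98. The third, ILMN_2615204, is annotated to a different Ehmt2 transcript from that of the lead and second probes and gave −0.22 to −0.094. Ehmt1, which encodes GLP, differed by −0.082 ± 0.076 (SE, 4 pairs; adjusted p = 0.908) on its lead probe and by a mean of 0.089 on its other probe, ILMN_2633604.

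Among the early factors, Cebpb had the widest range of the 9 genes, and its SD of 0.87 exceeded that of 98.2% of the 31443 features tested. Its single probe, ILMN_2756435, read 0.22 and 1.29 in replicates 1 and 2 of control at day 0 and −0.89 and 0.31 at day 1. In siG9a cells it read 0.30 and 1.59 at day 0 and −0.79 and 0.45 at day 1. The difference between day 1 and day 0 was thus between −1.14 and −0.98 in each of the 4 pairs, while replicate 2 stood above replicate 1 by 1.07 to 1.29, so that the groups of the 2 days overlapped. Without a replicate term, the limma fit gave −1.04 ± 0.60 in control (SE, 2 arrays per group; adjusted p = 1.0) and −1.12 ± 0.60 in siG9a (adjusted p = 0.855). With the replicate number as a block, the same differences had an SE of 0.10 and adjusted p-values of 0.000353 and 0.000291, and day 1 lay at 48.6% of day 0 in control and 46.1% in siG9a.

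Cebpd, whose product pairs with C/EBPβ in the early phase, followed the same course on its lead probe ILMN_2707363. It read 0.19 and 1.0 in control at day 0, −0.44 and −0.054 in control at day 1, 0.25 and 1.0 in siG9a at day 0, and −0.67 and −0.16 in siG9a at day 1. All 4 arrays of day 1 lay below all 4 arrays of day 0. The difference was −0.85 ± 0.13 in control (SE with the block; adjusted p = 0.0032, against 0.553 without it) and −1.04 ± 0.13 in siG9a (adjusted p = 0.0012, against 0.345). The calls of Cebpb and Cebpd in the blocked fit held when any 1 of the 8 arrays was left out, with Cebpd in control reaching an adjusted p of 0.0473 at most.

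The promoter window of Cebpb is shown because the gene moved most and because bZIP factors of the CREB family, which bind variants of TGACG, are known activators of Cebpb in preadipocytes. RefSeq (GRCm38.p6) gave windows of 250 bases before to 50 after the start for 6 of the 9 genes, 8 windows in all. The window lies at chr2:167688665-167688964 on the plus strand and covers the promoter and the first transcribed bases. Capitals mark TGACG on either strand (CGTCA on the other).
Cebpb: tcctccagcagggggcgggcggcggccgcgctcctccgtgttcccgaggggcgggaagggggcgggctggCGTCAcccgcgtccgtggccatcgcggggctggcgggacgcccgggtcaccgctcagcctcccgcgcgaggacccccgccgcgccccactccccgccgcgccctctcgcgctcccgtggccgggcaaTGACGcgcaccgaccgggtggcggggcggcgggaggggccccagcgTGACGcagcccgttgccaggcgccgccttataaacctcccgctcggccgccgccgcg
The 3 matches start 180, 53 and 7 bases before the transcription start. At least 3 matches were found in 1.03% of the 32851 mouse promoter windows of the same length, and at least 1 in 20.8%. The Cebpb window has a GC content of 80.7%, against a median of 52.7% over those windows, and the shares were not matched for GC content. A match of letters is a description of the window and not a bound site.

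Pparg was led by probe ILMN_1221060, with an SD of 0.71 that exceeded 96.9% of features. It read 1.33 and 0.13 in replicates 1 and 2 of control at day 0 and 0.32 and −0.45 at day 1. In siG9a cells the values were 1.33 and −0.038 at day 0 and 0.57 and −0.50 at day 1. Each replicate was lower at day 1, with differences of −1.01 to −0.46, but replicate 1 at day 1 stayed above replicate 2 at day 0, so that the days overlapped. The difference was −0.79 ± 0.14 in control (SE with the block; adjusted p = 0.0077, against 1.0 without it) and −0.61 ± 0.14 in siG9a (adjusted p = 0.0284, against 0.980). The call in control was lost without replicate 1 of control at day 0 (adjusted p = 0.0815) or at day 1 (0.0881). In siG9a it was lost without replicate 1 at day 0 (0.243), replicate 1 at day 1 (0.155) or replicate 2 at day 1 (0.130).

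The fall of Pparg passed the test on this probe alone. ILMN_1221893 had an SD of 0.20 and gave blocked day differences of −0.038 in control and −0.14 in siG9a (adjusted p = 0.932 and 0.481, each probe tested on its own). ILMN_1221594 had an SD of 0.11 and gave −0.19 and −0.025 (adjusted p = 0.377 and 0.90). All 3 probes carry the same transcript accession, and the files used here hold no probe sequence that would place them on the gene. The lead probe also ran against the others between replicates: it was lower in replicate 2 than in replicate 1 in all 4 groups, with differences of −1.37 to −0.77, whereas both other Pparg probes were higher in replicate 2 in all 4.

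Pparg has several start sites, and 2 of its 3 RefSeq windows are shown to set the GC-rich upstream start beside the AT-rich downstream one; the arrays do not say which start was used. The first lies at chr6:115360894-115361193 and the other at chr6:115421816-115422115, both on the plus strand. Capitals mark the E-box letters CANNTG, the core that MyoD and other bHLH factors read.
Pparg upstream start: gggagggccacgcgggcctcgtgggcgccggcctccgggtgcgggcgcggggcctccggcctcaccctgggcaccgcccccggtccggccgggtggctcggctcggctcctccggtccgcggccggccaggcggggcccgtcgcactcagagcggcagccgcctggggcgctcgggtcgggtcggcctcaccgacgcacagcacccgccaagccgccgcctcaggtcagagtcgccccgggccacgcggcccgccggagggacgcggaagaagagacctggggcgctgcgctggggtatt
Pparg downstream start: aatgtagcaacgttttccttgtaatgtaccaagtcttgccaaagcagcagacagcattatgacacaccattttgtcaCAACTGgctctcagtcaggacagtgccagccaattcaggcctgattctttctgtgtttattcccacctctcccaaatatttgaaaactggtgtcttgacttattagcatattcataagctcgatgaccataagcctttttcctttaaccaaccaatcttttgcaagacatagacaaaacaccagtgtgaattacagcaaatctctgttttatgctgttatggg
The upstream window has a GC content of 80.3% and no CANNTG, and the downstream window 40.3% and 1 match. CANNTG, which reads the same on both strands, was present in 72.3% of all promoter windows, and TGACG was found in neither of these.

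The later adipocyte genes were not called between days. Cebpa, on probe ILMN_1247147, ranged from −0.053 to 0.42 over the 8 arrays, with an SD of 0.16 that exceeded 32.4% of features. Its day differences were −0.12 ± 0.11 in control and −0.12 ± 0.11 in siG9a (SE with the block; adjusted p = 0.717 and 0.543). Fabp4, on probe ILMN_2615947, ranged from −0.26 to 0.22, with an SD of 0.20 that exceeded 60% of features, and differed by −0.11 ± 0.099 in control and 0.035 ± 0.099 in siG9a (adjusted p = 0.707 and 0.852). The 95% interval for Fabp4 ran from −0.33 to 0.12 in control and from −0.19 to 0.26 in siG9a.

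Of the Wnt ligands, Wnt10b read 0.34 and 1.15 on its lead probe, ILMN_2422848, in replicates 1 and 2 of control at day 0 and −0.071 and −0.014 at day 1. In siG9a cells it read 0.56 and 0.99 at day 0 and −0.10 and −0.059 at day 1. Every array of day 1 lay below every array of day 0. The replicates differed at day 0 but nearly met at day 1, so that day 1 minus day 0 was −0.41 and −1.17 in the 2 control pairs and −0.66 and −1.05 in the 2 siG9a pairs. The difference was −0.79 ± 0.18 in control (SE with the block; adjusted p = 0.0240, against 0.342 without it) and −0.85 ± 0.18 in siG9a (adjusted p = 0.0173, against 0.301). The control call was lost without replicate 1 of control at day 1 (adjusted p = 0.0510), replicate 2 at day 0 (0.176) or replicate 2 at day 1 (0.234). The siG9a call was lost without replicate 1 of siG9a at day 0 (0.0685), replicate 2 at day 0 (0.114) or replicate 2 at day 1 (0.157).

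The second Wnt10b probe, ILMN_2432242, of the same accession, ranged from −0.28 to 0.16 and gave blocked day differences of −0.053 and 0.17 (adjusted p = 0.921 and 0.475). The promoter window of Wnt10b is shown as that of the ligand whose lead probe fell together with Cebpb and Cebpd. It lies at chr15:98778101-98778400 and is read on the minus strand, with capitals marking TGACG on either strand and CANNTG.
Wnt10b: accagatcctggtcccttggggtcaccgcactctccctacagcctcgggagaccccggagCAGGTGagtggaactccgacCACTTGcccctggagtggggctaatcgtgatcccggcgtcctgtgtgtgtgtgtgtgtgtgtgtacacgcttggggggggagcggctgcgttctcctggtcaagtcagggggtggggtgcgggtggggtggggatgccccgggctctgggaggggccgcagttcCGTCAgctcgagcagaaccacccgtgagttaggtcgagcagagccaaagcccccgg
It holds 1 TGACG match, 6 bases before the start, and 2 CANNTG matches that start 190 and 170 bases before it. The windows of Cebpb and Wnt10b thus share TGACG letters, which the 3 Pparg windows lack, and so does the window of Ppargc1a, a gene that was not called between days, with 1 match 49 bases before its start.

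Wnt10a, the ligand that G9a favours in preadipocytes, behaved differently on its single probe ILMN_2460094. It read −1.08 and 0.29 in replicates 1 and 2 of control at day 0, −0.41 and 0.17 in control at day 1, −0.67 and 0.055 in siG9a at day 0, and −0.47 and 0.028 in siG9a at day 1. All 4 arrays of replicate 1 were below all 4 of replicate 2, by 0.50 to 1.37 within a group. The day differences of 0.28 ± 0.19 in control and 0.087 ± 0.19 in siG9a passed no test (SE with the block; adjusted p = 0.552 and 0.804). Replicate 1 was higher at day 1 by 0.67 in control and 0.20 in siG9a, whereas replicate 2 gave −0.12 and −0.027.

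The brown fat regulators were not called between days either. Prdm16 read between −0.28 and 0.17 on its lead probe, ILMN_2663314, and between −0.26 and 0.18 on ILMN_2513922. Its day differences on the lead probe were −0.0095 ± 0.10 in control and 0.079 ± 0.10 in siG9a (SE with the block; adjusted p = 0.984 and 0.661). Ppargc1a, on probe ILMN_2710139, lay between −0.17 and 0.17 in 7 arrays and at 0.40 in replicate 2 of siG9a at day 1. Its differences were 0.023 ± 0.13 in control and 0.22 ± 0.13 in siG9a (adjusted p = 0.968 and 0.353), with pairs of −0.0039 and 0.43 in siG9a.

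**Figure D2:**
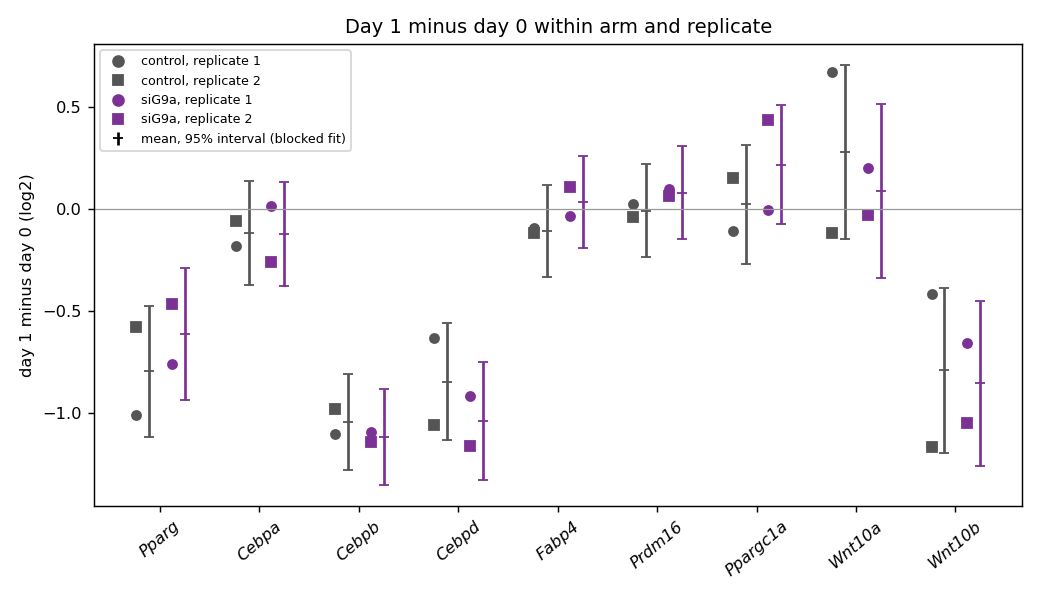
Day 1 minus day 0 on the log2 scale (vertical axis) for the 9 genes (horizontal axis), with a point for each pair of arrays of 1 arm and replicate number, and a bar for the mean with its 95% interval from the blocked fit. All 4 pairs lie below 0 for Cebpb, Cebpd, Pparg and Wnt10b, and the pairs of the other 5 genes fall on both sides of 0.

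Without the replicate block, 0 of the 9 genes were called between days (adjusted p under 0.05 over all features), where 1.12% of features were called in control and 0.906% in siG9a. With the block, 4 of 9 were called in each arm, all lower, where 8.83% of features were called in control and 8.98% in siG9a, and 4.97% and 5.56% were called lower. The same 4 genes were called lower in both arms, against 4% of features. The 9 genes were chosen with earlier results of these data known, so the shares over all features are no independent test of them. The control and siG9a courses share no array but share the replicate numbers. A probe chosen for a large SD favours features that move between days or replicates, for members and other named genes alike. The 9497 unnamed probes among the 31443 features were not chosen by SD, so the shares over all features are not a fully like comparison. All 4 day pairs were negative for 4 of the 9 genes, against 12.3% of features, and positive for 0, against 20.8%.

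Whether the day course depended on G9a was tested as an interaction, and 0 of the 9 genes were called, where 0% of features were. In the 9 genes the interaction, the siG9a course minus the control course, lay between −0.19 and 0.19, with the smallest unadjusted p at 0.521 without the block and 0.312 with it. At an unadjusted p under 0.05, 18 features passed without the block and 1382 with it. The SE of the interaction in the blocked fit was 0.14 to 0.27 over the 9 genes, and the 95% intervals reached from −0.79 to 0.64.

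The comparison of siG9a with control cells put the knockdown itself to the test. For Pparg, the repressed target in preadipocytes, siG9a minus control was 0.0031 and −0.17 in replicates 1 and 2 at day 0 and 0.25 and −0.054 at day 1. For Wnt10a it was 0.41 and −0.23 at day 0 and −0.062 and −0.14 at day 1. Neither gene kept one sign over the 4 pairs. The paired difference over both days was 0.0086 ± 0.083 for Pparg (SE, 4 pairs; adjusted p = 0.994), with a 95% interval of −0.17 to 0.18, or 89.2% to 113% of control. For Wnt10a it was −0.0075 ± 0.094 (adjusted p = 0.996), with an interval of −0.20 to 0.19, or 86.8% to 114%. Single pairs of both genes lay beyond these intervals. With the replicate block the intervals were 85.9% to 118% for Pparg and 80.7% to 123% for Wnt10a. Without it they were 53.6% to 189% and 60.7% to 163%.

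Cebpb was higher in siG9a cells in all 4 pairs, by 0.079 and 0.30 at day 0 and 0.091 and 0.14 at day 1. Of the 9 genes 1 had 4 positive pairs, against 6.64% of features, and 0 had 4 negative pairs, against 8.37%. The paired difference of Cebpb was 0.15 ± 0.078 (SE, 4 pairs), 111% of control with an interval of 99.2% to 124%, and did not pass the test (unadjusted p = 0.0662, adjusted p = 0.666). Its partner Cebpd gave 0.057 and −0.0041 at day 0 and −0.22 and −0.11 at day 1, a mean of −0.070 ± 0.079 (adjusted p = 0.938).

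The remaining genes showed mixed signs. Cebpa differed by −0.14 and 0.18 at day 0 and by 0.051 and −0.019 at day 1. Fabp4 differed by −0.053 and −0.16 at day 0 and by 0.0053 and 0.062 at day 1. Neither passed the test, with means of 0.017 ± 0.080 for Cebpa (adjusted p = 0.991) and −0.037 ± 0.078 for Fabp4 (adjusted p = 0.979). Wnt10b differed by 0.21 and −0.16 at day 0 and by −0.030 and −0.046 at day 1, with a mean of −0.0064 ± 0.082 (adjusted p = 0.996). The lead probes of Prdm16 and Ppargc1a were higher in both siG9a replicates at day 1, Prdm16 by 0.033 and 0.17 and Ppargc1a by 0.12 and 0.23, and of mixed sign at day 0. Their means over both days were 0.055 ± 0.078 and 0.077 ± 0.079 (adjusted p = 0.960 and 0.927).

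**Figure D3:**
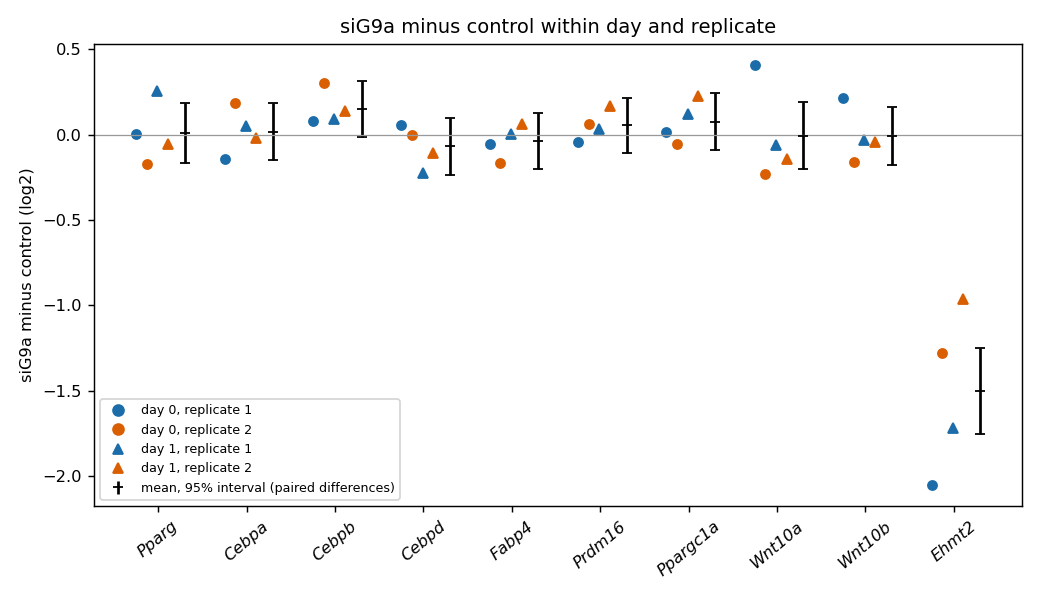
siG9a minus control on the log2 scale (vertical axis) for the 9 genes and Ehmt2 (horizontal axis), with a point for each pair of arrays of 1 day and replicate number, and a bar for the mean with its 95% interval from the fit of paired differences. The intervals of the 9 genes all include 0, and that of Ehmt2 runs from −1.75 to −1.25.

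In the fit of group means, 0 of 31443 features were called (0%) at day 0, at day 1 and over both days, with 123, 54 and 148 features at an unadjusted p under 0.05. The members' smallest unadjusted p was 0.653 at day 0, 0.419 at day 1 and 0.608 over both days, with an SE of 0.14 to 0.42 for the last. The replicate block called 0 features as well, with 1728, 1195 and 1540 at an unadjusted p under 0.05, and the members' smallest p was 0.0995, 0.212 and 0.0673. Only the fit of the 4 within-pair differences, which treats the 2 days as repeats of one contrast, called any feature: 256, or 0.814%, with 136 lower (0.433%) and 120 higher (0.382%), of which 0 were members. In that fit the 95% intervals of the 9 genes ran from −0.24 at the lowest to 0.32 at the highest. Over both days they reached from −0.31 to 0.32 with the block and from −0.90 to 1.12 without it. At day 0 they reached from −0.40 to 0.51 with the block and from −1.37 to 1.56 without it. At day 1 the bounds were −0.53 to 0.46 and −1.25 to 1.48. Differences within the bounds of a fit could not be resolved by it.

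No call was made for siG9a on the remaining probes of these genes, each tested on its own with and without the block. The 2 other Pparg probes had pair differences between −0.19 and 0.12. The second Cebpd probe, ILMN_2588570, differed by −0.14 and −0.12 at day 0 and by 0.035 and 0.20 at day 1. On ILMN_2513922 of Prdm16, siG9a minus control was −0.19 and −0.087 at day 0 and −0.015 and 0.020 at day 1, a mean of −0.068 against 0.055 on the lead probe. ILMN_2432242 of Wnt10b gave −0.41 and 0.13 at day 0 and 0.053 and 0.11 at day 1. Between days, ILMN_2588570 of Cebpd read 0.067 in control and 0.31 in siG9a (adjusted p = 0.853 and 0.107 with the block), opposite in sign to the lead probe. In Cebpd, Pparg and Wnt10b alike, the fall between days therefore passed the test on 1 probe of the gene and on no other.

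**Figure D4:**
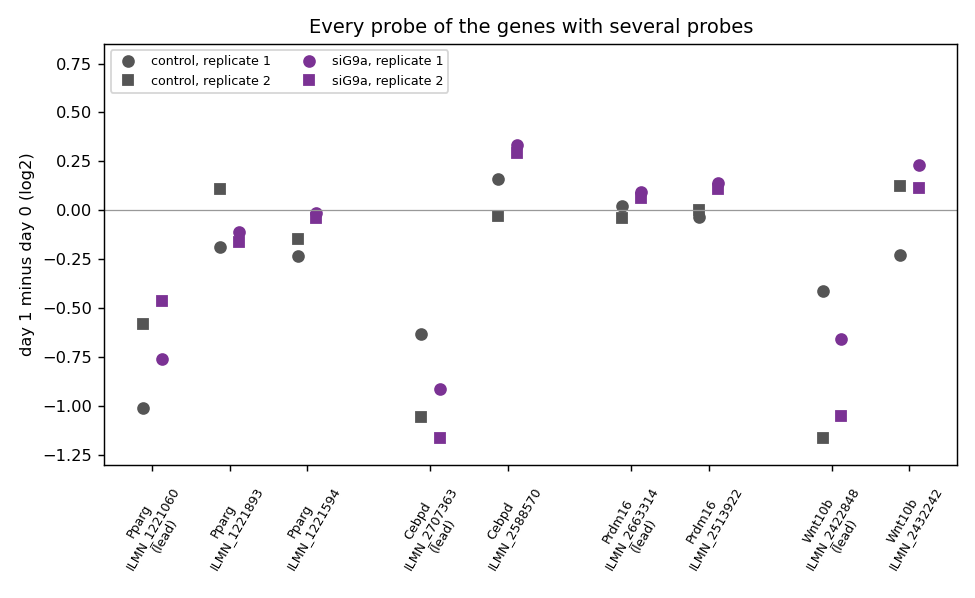
Day 1 minus day 0 on the log2 scale (vertical axis) for every probe of the 4 genes with several probes (horizontal axis), with a point for each pair of arrays of 1 arm and replicate number. The lead probes of Pparg, Cebpd and Wnt10b lie below −0.4 in all pairs, and their other probes lie between −0.24 and 0.33.

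Replicates also differed in these genes. Replicate 2 stood above replicate 1 in all 4 groups for 8 of the 9 genes, against 51.7% of features, and below it in all 4 groups for Pparg, against 12.9%. Over the 8 arrays, which share days, arms and replicates, Cebpd correlated with Wnt10b at r = 0.96 and with Cebpb at 0.94, and Pparg with Wnt10a at −0.88. The named genes most like each member by Pearson r over the 8 arrays were Dnajc10 (0.993), Mob1a (0.993) and Foxc1 (0.991) for Cebpb, and Slc25a28 (0.998), Vars2 (0.997) and Rgs10 (0.995) for Cebpd. For Pparg they were Aspscr1 (0.988), Cldnd1 (0.986) and Acy1 (0.985), and for Wnt10b Meis2 (0.990), 1810009A15Rik (0.985) and Lxn (0.985). Wnt10a ran closest to Gm9385 (0.994), Pgr (0.989) and Lgi4 (0.986). Cebpa ran closest to Olfr624 (0.981), Hltf (0.972) and Zbtb38 (0.968), and Fabp4 to Olfr406 (0.995), Nufip1 (0.987) and Svs1 (0.986). Prdm16 ran closest to Colec10 (0.998), Synb (0.995) and Serpina5 (0.992), and Ppargc1a to Ifna6 (0.986), Lilra6 (0.979) and Nek7 (0.977). These genes were picked as the highest r among the 21946 named genes, over only 8 arrays with a broad offset between replicates. Such r values do not show shared regulation, which was not tested.

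The wider pathways were read from 6 lists that leave out the 9 genes. In the blocked fit that the day counts of these lists come from, 8.83% of all features were called in control and 8.98% in siG9a, and the counts are to be read against those shares. Of 38 transcription regulators of adipogenesis, all measured, 3 rose and 2 fell from day 0 to day 1 in control with the block, and 3 rose and 5 fell in siG9a. Klf5, a Krüppel-like factor that promotes Pparg expression, rose by 1.21 in control and 1.09 in siG9a (adjusted p = 0.000198 and 0.000355). Ddit3, which encodes CHOP, a C/EBP relative that blocks C/EBP binding, rose by 0.99 and 0.65 (adjusted p = 0.00142 and 0.0124). Foxc2, a forkhead factor of fat and mesenchyme, fell (log2 differences of −1.32 and −0.83, adjusted p = 0.000458 and 0.00576). The list's median was −0.021 in control and 0.056 in siG9a, beside 0.0093 and 0.090 over all features.

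Of 28 measured genes among 32 downstream of PPARγ or of adipocyte lipid handling, 2 rose and 2 fell in control and 1 rose and 1 fell in siG9a, with medians of 0.0034 and 0.077. Angptl4, a lipoprotein lipase inhibitor and direct PPAR target, fell (−0.75 in control and −0.88 in siG9a, adjusted p = 0.033 and 0.016 with the block). Agpat2, an enzyme of triglyceride synthesis, fell by 0.53 in control (adjusted p = 0.00897 with the block) and read −0.19 in siG9a (0.276). Mgll and Pnpla2, the lipases that release fatty acids from monoglycerides and triglycerides, rose in control by 0.69 and 0.52 (adjusted p = 0.0263 and 0.0222) and read 0.55 and 0.34 in siG9a (0.0668 and 0.117).

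Of 28 measured brown fat and PGC-1α-linked genes among 30, 4 rose and 3 fell in control and 4 rose and 2 fell in siG9a, with medians of 0.026 and 0.12. Fndc5, which encodes the irisin precursor, rose by 3.66 and 3.38 and was called without the block too (adjusted p = 0.0187 and 0.0198). Cox8b, a cytochrome oxidase subunit of brown fat and striated muscle, rose by 3.73 and 3.36 (adjusted p = 0.000108 and 0.000198 with the block). Tbx15, a T-box factor, rose by 1.02 and 1.20 (0.0119 and 0.00548), and Pdk4, the kinase that restrains pyruvate dehydrogenase, fell (−1.46 and −1.20, with adjusted p of 0.00038 and 0.00117). Fndc5 and Cox8b are also expressed in muscle, and their rise stands beside that of the muscle markers described last; their part in it was not tested.

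Beside Wnt10a and Wnt10b, 19 genes for Wnt ligands and their secretion were read, of which 1 rose and 1 fell in control and 1 rose and 0 fell in siG9a. Porcn, the acyltransferase needed for Wnt secretion, rose by 1.77 and 1.37 (adjusted p = 0.0006 and 0.00252 with the block). Of 28 measured receptors and signal carriers among 29, 3 rose and 1 fell in control and 2 rose and 0 fell in siG9a. The receptors Fzd5 and Fzd2 rose in both, Fzd5 by 1.53 and 1.40 and Fzd2 by 0.88 and 0.97 (adjusted p between 0.000123 and 0.00117). Of 28 inhibitors and targets, 1 rose and 1 fell in control and 2 rose and 1 fell in siG9a. Kremen2, a DKK coreceptor, rose by 1.07 and 1.14 (0.00168 and 0.00132), and Ccnd1, the cyclin D1 gene, fell (−2.09 and −2.46) and was called without the block (adjusted p = 0.019 and 0.0115).

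Axin2, a feedback target of β-catenin, read 0.35 in control and 0.34 in siG9a (adjusted p = 0.117 and 0.116). Between siG9a and control cells, the paired fit called 1 gene in each of 4 lists and 0 in the other 2, where it called 0.814% of all features. The fit with the replicate block called none of those 4 genes (adjusted p of 0.633 to 0.993). Klf4, a Krüppel-like factor of the early phase, differed by −0.40 (adjusted p = 0.0468), Elovl6, a fatty acid elongase, by −0.42 (0.0121) and Ccnd1 by −0.60 (0.00248), each lower in all 4 pairs. Porcn differed by 0.60 (adjusted p = 0.00851) and was higher in all 4 pairs, from 0.20 to 1.13. The median siG9a difference of the 6 lists ran from −0.049 to 0.031, beside −0.0041 over all features.

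**Figure D5:**
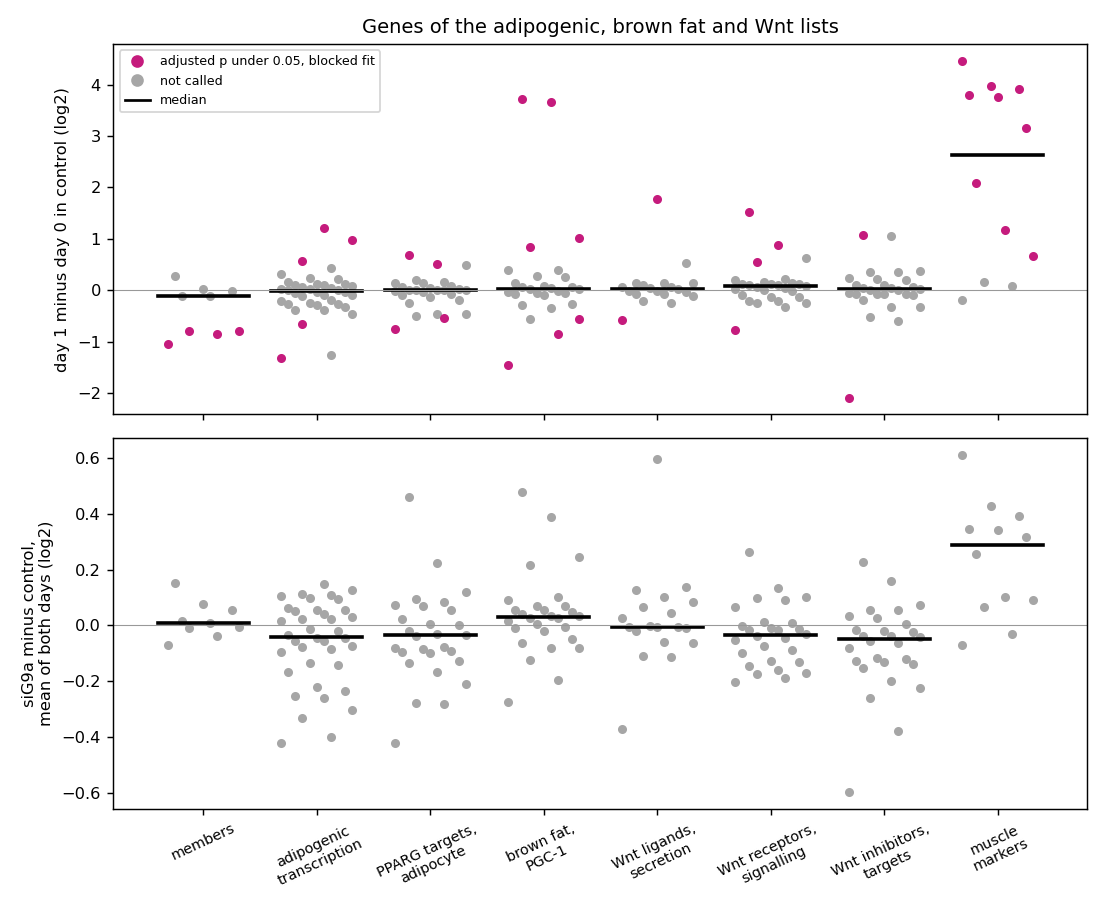
Log2 differences (vertical axes) of every measured gene of the 9 members, the 6 adipogenic, brown fat and Wnt lists and the 12 muscle markers (horizontal axis), for day 1 minus day 0 in control in the upper panel and siG9a minus control over both days in the lower. Each point is a gene, coloured where the adjusted p of the blocked fit is under 0.05, and a line gives the median, which lies between −0.049 and 0.072 for the 6 lists and at 2.63 between days for the muscle markers.

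The labelled cell type was set against markers, although relative values cannot show whether a marker is present. Muscle markers rose between days: 9 of 12 were called higher in control and 7 in siG9a with the block, Myog by 3.92 and 3.28 and Ckm by 4.46 and 3.87. The same fit called 8.83% of all features in control and 8.98% in siG9a. The summed log2 value of the 12 went from −17.3 and −34.7 in replicates 1 and 2 at day 0 to 5.99 and −3.79 at day 1 in control, and from −9.95 and −32.4 to 6.41 and −2.34 in siG9a. Replicate 1 was thus higher in muscle markers on both days, as was the lead Pparg probe. Over both days, 10 of 12 muscle markers had a positive siG9a difference, with a median of 0.29 that combined 0.57 at day 0 and 0.035 at day 1, and Tnnt3, fast troponin T, was called (0.61, adjusted p = 0.00981 in the paired fit). The paired fit called 0.814% of all features, and the fits with and without the block called 0 of the 12 for siG9a. The median over all features was −0.0041 over both days.

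Markers of other cells moved less. Their counts in the blocked fit are to be read against the 8.83% of all features called in control and 8.98% in siG9a. Of 5 measured adipocyte markers among 7, 0 were called in either course, and their summed value ran from −1.38 to 1.13. Fibroblast markers numbered 8, of which 3 were called higher in control and 2 in siG9a, with Col1a1 at 1.73 and 1.43; their sum ran from −6.39 to −2.40 in replicate 1 and from 2.84 to 10.4 in replicate 2. Of 6 endothelial markers 0 were called, with sums from −1.31 to 1.26. Of 6 macrophage markers, Cd14 fell (−1.02 and −1.06), with sums from −0.90 to 2.0. The part of these markers in the day course of Cebpb, Cebpd, Pparg and Wnt10b was not tested.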

How the data were processed

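Total RNA of 8 myoblast samples was hybridised to Illumina WG-6 v2.0 arrays. The authors' deposited values were used as log2 values, each over a reference of its own probe. Their base is not stated, and for background correction, normalization and software the sources used here name nothing. A further table of unnormalized signal and detection has 16 columns whose names match no sample and was not used, nor were settings that need it. Of 45281 probes, 35784 had 1 gene symbol: 28620 were named through the Entrez ID, 2637 through the accession and 4527 kept the platform's symbol; 9497 had none and stayed as probes. For each of 21946 named genes the probe of largest SD was kept, giving 31443 features.

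The 4 group means were fitted with limma 3.58.1 in R 4.3.3 (lmFit and eBayes, 4 residual and 4.59 prior degrees of freedom), with Benjamini-Hochberg adjustment over all features and a threshold of 0.05, and tested on simulated data first. Every adjusted p, SE and interval of a fit is from limma, which draws each feature's spread towards that of all features. Such an SE can be smaller than the spread of that feature's own pairs would give. Alternatives were a replicate block (3 residual degrees of freedom), paired differences, arrays centred on their median, the mean of a gene's probes, every probe on its own, the lower part of SDs left out, robust eBayes and each array left out. The replicate numbers come from the sample titles; deviations of same-numbered arrays from their group means correlated at r = 0.61 to 0.87 in all 6 pairs of groups, and the numbers were taken to pair the arrays, so blocked values stand beside the others. Where replicates do not stem from separate cultures, p-values measure technical spread only. The paired fit treats 4 differences from 2 replicate numbers as independent, so its intervals may be too narrow.

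The 9 genes and all lists were chosen with earlier results of these data known. Genes of the 6 pathway lists were named by rank of p: up to 4 in each direction between days in control and up to 3 in each direction for siG9a, of which those called or close to a member's role are printed; the 3 genes most like a member were ranked by Pearson r. Promoters are RefSeq windows of GRCm38.p6; motif searches used Python 3.11.15. No window was listed for Cebpd, Fabp4 and Wnt10a.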

Additional observations from a re-analysis of the deposited data

How the results depend on the processing

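With the replicate block, which the numbering of the arrays allows, features called between days rose from 353 to 2775 in control and from 285 to 2825 in siG9a, and members called rose from 0 to 4 in both. Centring each array on its median gave 92 and 147 features without the block. Paired differences called 256 features between siG9a and control over both days, and 157 with centring, where the group means called 0; members called stayed at 0. Under centring, the siG9a day course of Fabp4 turned to −0.050 and that of Prdm16 to −0.0067, and with the mean of a gene's probes the siG9a difference of Prdm16 turned to −0.0065. Of the other alternatives with all arrays, none turned a member's direction in these 3 comparisons.

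Leaving out 1 array breaks a replicate pair. Without the block it called between 7 and 363 features in the control course, 4 and 363 in the siG9a course, and 0 members. The siG9a difference over both days then ran from −0.33 to 0.35 for Pparg, −0.092 to 0.13 for Cebpa, −0.17 to 0.48 for Cebpb, −0.27 to 0.13 for Cebpd, −0.14 to 0.069 for Fabp4, −0.042 to 0.15 for Prdm16, −0.035 to 0.19 for Ppargc1a, −0.35 to 0.33 for Wnt10a and −0.21 to 0.20 for Wnt10b. The control course ran from −0.30 to 0.089 for Fabp4, −0.15 to 0.13 for Prdm16, −0.15 to 0.19 for Ppargc1a and −0.41 to 0.96 for Wnt10a. The siG9a course ran from −1.30 to 0.075 for Pparg, −0.34 to 0.097 for Cebpa, −0.18 to 0.25 for Fabp4, −0.12 to 0.27 for Prdm16, −0.0074 to 0.44 for Ppargc1a and −0.28 to 0.45 for Wnt10a. With the block, the count was 1483 to 2861 features in control and 1560 to 2800 in siG9a, with 2 to 4 members called in each, and no called member changed direction. The cause was not tested. Signal over background is unknown here, so a probe with little movement may have been dim.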
